A study of Mus musculus with 20 samples.

Results

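Livers of mice given the chemical cocktail 7c were compared with livers of mice given vehicle, 6 against 4, which made up 10 of the 20 RNA libraries of the series. The other 10 libraries came from kidneys. All mice were male UM-HET3 animals, 12 months of age per the labels, and both groups carried a subcutaneous osmotic minipump for 28 days. The 7c pumps delivered repsox, tranylcypromine, forskolin, CHIR99021, DZNep and TTNPB at 0.1 mg/kg/day each and valproate at 1 mg/kg/day, in the same carrier that the vehicle pumps held alone, 50% DMSO and 50% PEG300. UM-HET3 mice come from a cross of several inbred strains, so every animal holds its own mixture of founder alleles, and the founder alleles of the single mice are not given in the sources used here. A gene entered the comparison if 4 or more of the 10 livers had 10 counts or more for it, a rule that 15578 of the 57010 genes in the count table met, 13021 of them protein-coding. Levels are given in CPM, counts scaled to a common library size with TMM factors, and differences as log2 fold changes of 7c over vehicle.

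The 7 compounds act on pathways that have well known transcriptional readouts in liver. TTNPB activates retinoic acid receptors, CHIR99021 inhibits the kinase GSK3 and so stabilises beta-catenin, forskolin activates adenylyl cyclase and raises cAMP, and repsox inhibits the TGF-beta receptor kinase ALK5. Valproate inhibits histone deacetylases, tranylcypromine inhibits monoamine oxidases and the histone demethylase LSD1, and DZNep inhibits S-adenosylhomocysteine (SAH) hydrolase and thereby lowers methylation by EZH2. The liver itself consists mostly of hepatocytes, which make plasma proteins, glucose, lipids and bile acids, with endothelial cells, Kupffer cells, stellate cells and bile duct cells between them.

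A pair of promoters is shown because they carry the DNA elements through which retinoic acid receptors and beta-catenin are known to act, on the genes of these pathways with the lowest unadjusted p in this comparison. Each runs from 250 bases before to 50 bases after the transcription start, on the plus strand of GRCm38.p6, from RefSeq, at chr19:37697558-37697857 for Cyp26a1 and at chr2:70474673-70474972 for Sp5. Capitals in the Cyp26a1 promoter mark both repeats of a retinoic acid response element, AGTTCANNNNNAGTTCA, which was searched on both strands and stands here on the minus strand at bases 219 to 235. Capitals in the Sp5 promoter mark a TCF/LEF motif, CTTTGATC, searched in the same way and found at bases 147 to 154.
Cyp26a1: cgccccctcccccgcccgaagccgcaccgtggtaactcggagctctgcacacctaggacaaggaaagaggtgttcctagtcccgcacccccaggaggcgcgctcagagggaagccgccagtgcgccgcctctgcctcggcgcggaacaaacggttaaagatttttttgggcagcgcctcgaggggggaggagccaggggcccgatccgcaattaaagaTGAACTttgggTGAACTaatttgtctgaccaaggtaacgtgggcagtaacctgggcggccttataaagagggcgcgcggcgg
Sp5: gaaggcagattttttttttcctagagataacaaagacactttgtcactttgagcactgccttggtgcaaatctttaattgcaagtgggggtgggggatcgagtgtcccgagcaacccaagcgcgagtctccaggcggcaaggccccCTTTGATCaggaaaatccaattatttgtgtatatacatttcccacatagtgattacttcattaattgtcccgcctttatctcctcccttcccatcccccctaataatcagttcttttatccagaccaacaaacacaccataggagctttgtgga
The same letters occurred in 8 of 32851 promoters of this length (0.0244%) for the retinoic acid element and in 308 (0.938%) for the TCF/LEF motif. A match describes the letters only. Binding was not measured here.

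The total count was 28383359 to 30571119 in the 7c livers and 31670440 to 34153084 in vehicle livers, and since these ranges do not meet, the group and the depth cannot be told apart except by thinning all libraries to the smallest total. After thinning, 2 genes passed the threshold, as before it. Hepatocyte markers dominated all libraries. Their summed level was 81302 to 112725 CPM in 7c and 80009 to 100622 CPM in vehicle livers, and Alb, which encodes serum albumin, had 51185 to 77884 and 49363 to 65460.2 CPM. The share of counts from mitochondrial DNA was 3.94% to 5.17% in 7c and 3.61% to 5.78% in vehicle livers. The liver of 7c replicate 6 also held skeletal muscle transcripts, 943 CPM summed over 12 marker genes against at most 8.94 CPM in the other 9 livers. Over 11519 genes, the median root mean square difference in log2 CPM between a pair of livers was 0.584 within a treatment (21 pairs) and 0.576 between treatments (24 pairs).

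At an adjusted p under 0.05 (edgeR's quasi-likelihood test), 2 of 15578 genes (0.0128%) differed between 7c and vehicle livers, Mrap2 and Zfp949, and both were lower with 7c. In the other direction 0 genes passed (0.0%) with this test and 4 with DESeq2, among them Cyp46a1 and Hhipl1. At an unadjusted p under 0.05 there were 594 genes (3.81%), 294 higher (1.89%) and 300 lower (1.93%). For 121 genes (0.777%) the livers of the groups did not overlap, 57 with all 7c livers higher (0.366%) and 64 with all 7c livers lower (0.411%). Across all genes tested the median log2 fold change was 0.0033 with quartiles of -0.13 and 0.14, and 50.7% of the genes were above 0. The percentages in this paragraph are the background for the counts of list members that follow.

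**Figure D1:**
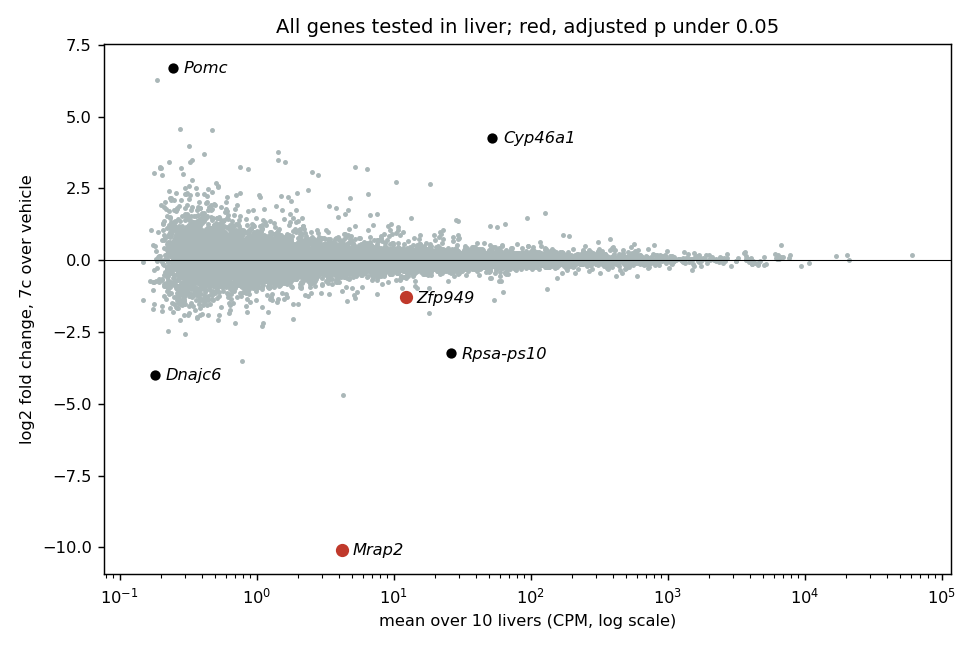
Log2 fold change of 7c over vehicle (vertical axis) against the mean level over 10 livers in CPM (horizontal axis, log scale), 1 point for each of the 15578 genes tested. Mrap2 and Zfp949, in red, passed the threshold, and Cyp46a1, Rpsa-ps10, Pomc and Dnajc6, in black, are described in the text.

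Mrap2 (ENSMUSG00000042761, chromosome 9, 87025834 to 87066102 of GRCm39) encodes an accessory protein of melanocortin receptors, known for its part in energy balance through the receptor MC4R. Vehicle livers had 11.3, 16.2, 6.59 and 7.94 CPM. The 7c livers had 0.0327 CPM in replicate 1 and 0 in the other 5, a single count over 6 livers against 1414 counts over the 4 vehicle livers. No 7c liver came near the vehicle range. The ratio of the count rates was 0.000525, with an exact Poisson interval of 1.33e-05 to 0.00293 that covers counting error only, which is a level 1904-fold lower (341 to 75238). Mrap2 fell by 10.09 on the log2 scale in the fitted model (standard error 1.32, adjusted p = 4.15e-07), a value that depends on how a near-zero group is smoothed. It passed the filter through the 4 vehicle livers alone, so that it had to differ once it was in the table, and with 1 vehicle liver left out it no longer entered it. In kidneys the level was 0.283 ± 0.188 CPM after 7c (SD, n = 6) and 2.82 ± 0.241 CPM after vehicle (SD, n = 4) (log2 fold change -3.27, adjusted p = 0.0997 from edgeR).

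Zfp949 (ENSMUSG00000032425, chromosome 9, 88430073 to 88453709 of GRCm39) encodes a zinc finger protein. Its level was 7.4, 6.56, 9.57, 9.02, 6.501 and 7.65 CPM in 7c replicates 1 to 6 and 16.8, 18.4, 18.97 and 21.7 CPM in vehicle replicates 1 to 4. Every 7c liver lay well below every vehicle liver, and the spread within each group was small beside the gap. Zfp949 fell by 1.28 on the log2 scale (95% interval -1.59 to -0.98, adjusted p = 0.00293), from 18.98 ± 2.05 CPM (SD, n = 4) to 7.78 ± 1.26 CPM (SD, n = 6). In kidney its level was 12.5 ± 1.89 CPM with 7c and 25.5 ± 1.92 CPM with vehicle, and the effects in liver and kidney differed by -0.27 (standard error 0.19, adjusted p = 0.9999). Without vehicle replicate 4 its adjusted p in liver was 0.0504, and over all alternatives it ran from 1.75e-11 to 0.253.

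**Figure D2:**
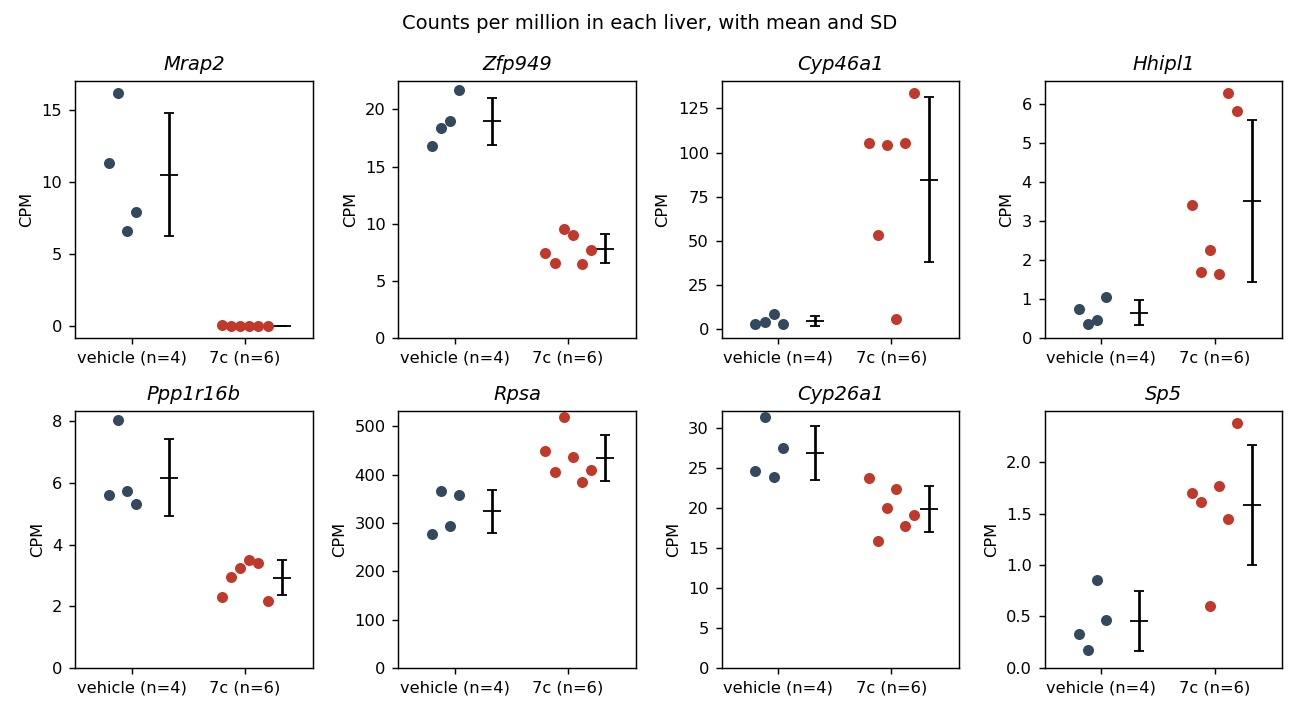
CPM of 8 genes in each liver, with 1 point per mouse, 4 vehicle livers in blue and 6 7c livers in red, and the mean with its SD beside them. The groups do not overlap for Mrap2, Zfp949, Hhipl1, Ppp1r16b, Rpsa and Cyp26a1, whereas 7c replicate 4 of Cyp46a1 (5.63 CPM) and 7c replicate 3 of Sp5 (0.598 CPM) lie within the vehicle range.

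Both genes lie on chromosome 9, with Mrap2 first. The 10 Mb window from 80 to 90 Mb that holds them had 39 tested genes, of which 3 did not overlap between the groups (7.69%) and 8 had an unadjusted p under 0.05 (20.5%). The third was the long non-coding RNA 9330159M07Rik, at 1.11 CPM with 7c against 0.531 CPM with vehicle. Among the neighbours, Mthfsl, which encodes a protein like the folate enzyme 5,10-methenyltetrahydrofolate synthetase, had 10.2 to 15.4 (median 12.3) and 15.1 to 17.2 CPM, with 5 of 6 7c livers below the vehicle range. Nt5e, which encodes the ectonucleotidase CD73, had 7.32 to 18.1 (median 15.7) and 17.3 to 23.5 CPM. Of the genes between Mrap2 and Zfp949, Cep162, a centrosomal protein gene next to Mrap2, had means of 2.78 CPM with 7c and 4.41 CPM with vehicle (log2 fold change -0.66, unadjusted p = 0.0268 from edgeR), and Snx14 and Syncrip had log2 fold changes of -0.032 and -0.052. Of the 234 windows with at least 20 tested genes, 146 held no gene whose groups did not overlap, 67 held 1, 16 held 2 and 5 held 3 or more. The window with the most was chromosome 7 from 120 to 130 Mb, with 5 of 142 genes. These neighbours and windows were chosen after their values were seen.

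No other gene passed the threshold, and the 12 protein-coding genes of lowest unadjusted p in each direction (mean of at least 1 CPM in either group) are given as the upper end of what the comparison held. They were picked by their p, so their number and direction are no result. Cyp46a1 encodes cholesterol 24-hydroxylase, an enzyme best known from neurons, where it turns cholesterol into an exported oxysterol. Its level was 105, 53.3, 104, 5.63, 105 and 134 CPM in 7c replicates 1 to 6 and 2.54, 3.67, 8.55 and 2.95 CPM in vehicle livers. In the 7c group 5 livers stood far above the highest vehicle liver, and replicate 4 was within the vehicle range. The log2 fold change was 4.25 (95% interval 2.97 to 5.54, adjusted p = 0.135), and without 7c replicate 4 it was 4.50 with an adjusted p of 0.00034. Without vehicle replicate 2 the adjusted p was 0.746, and over all alternatives it ran from 2.21e-06 to 1.0.

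Hhipl1, named for its likeness to the hedgehog-interacting protein, lies next to Cyp46a1 on chromosome 12. It had 3.41, 1.67, 2.26, 1.63, 6.28 and 5.81 CPM in the 7c livers and 0.725, 0.344, 0.454 and 1.05 CPM in vehicle livers. Replicate 4, where Cyp46a1 was low, had the lowest Hhipl1 level of the 7c group, and all 6 were above the vehicle range (log2 fold change 2.44, adjusted p = 0.687). Of the 91 tested genes between 100 and 110 Mb of this chromosome, 3 did not overlap between the groups (Serpina3g, D430019H16Rik and Hhipl1) and 10 had an unadjusted p under 0.05. Serpina3g, a member of a serine protease inhibitor family that is expanded in mice, had 0.542 to 1.79 (median 1.28) CPM with 7c and 0.461, 0.287, 0.398 and 0.292 CPM with vehicle. Camkmt, a methyltransferase of calmodulin, had 0.933 to 3.75 (median 2.27) and 0.395, 0.918, 0.852 and 0.935 CPM.

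Smaller differences with little spread made up most of the other higher genes. Rpsa, a protein of the small ribosomal subunit, had 385 to 519 (median 423) CPM in the 7c livers and 277, 366, 294 and 359 CPM in vehicle livers (log2 fold change 0.42, 95% interval 0.18 to 0.66), with no overlap. Its processed pseudogene Rpsa-ps10, named here after its values were seen, had the opposite order, with 5.13 to 7.17 CPM in the 7c livers and 65.4, 4.76, 76.1 and 80.1 CPM in vehicle livers. The pseudogene was as low in vehicle replicate 2 as in the 7c livers, and which reads of this pair come from which copy is uncertain. The adjusted p of Rpsa-ps10 was 0.0804, and under other settings it was 0.000178 with DESeq2, 1.57e-07 with edgeR's likelihood ratio test, 0.00631 with both tissues in 1 fit, 0.00114 with no filter and 2.29e-08 without vehicle replicate 2, and it ran from 2.29e-08 to 1.0 over all alternatives. The sum of both was 440.2 ± 48.0 CPM (SD, n = 6) and 380.4 ± 41.0 CPM (SD, n = 4), and it overlapped between the groups, with 390.5 CPM in the lowest 7c liver and 438.7 CPM in vehicle replicate 4. Pyroxd2, an oxidoreductase-like protein, had 46.5 to 51.8 (median 49.1) and 36.2, 33.96, 38.4 and 44.6 CPM, with no overlap. Psme2b, a copy of the proteasome activator gene Psme2, had 5.15 to 6.68 (median 5.93) and 3.69, 3.44, 4.32 and 3.91 CPM.

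The signalling genes among them were Jak3, the kinase of receptors with the common gamma chain, at 8.15 to 13.9 (median 11.1) against 5.27, 8.86, 5.88 and 5.26 CPM, and the adaptor Sh3bp2 at 18.8 to 27.2 (median 25.4) against 17.7, 14.7, 18.5 and 17.3 CPM. Sh3bp2 did not overlap, and 1 7c liver lay within the vehicle range for Jak3. Lcn2, which encodes the iron-siderophore binding protein lipocalin 2, had 1.88 to 4.31 (median 2.63) CPM with 7c and 1.32, 1.205, 1.31 and 1.52 CPM with vehicle. Pdrg1 had 17.4 to 26.8 (median 24.6) and 12.98, 11.4, 19.3 and 13.96 CPM, and Dglucy, a mitochondrial D-glutamate cyclase, 38.5 to 53.02 (median 42.97) and 39.1, 30.9, 28.9 and 29.4 CPM. For these 12 genes other than Cyp46a1 and Hhipl1 the adjusted p was 0.9999.

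On the lower side, Ppp1r16b had the lowest p after Mrap2 and Zfp949. It encodes a regulator of protein phosphatase 1 that is abundant in endothelium. It had 2.29, 2.96, 3.25, 3.49, 3.39 and 2.17 CPM in the 7c livers and 5.6, 8.03, 5.74 and 5.31 CPM in vehicle livers. All 6 7c livers lay below the vehicle range (log2 fold change -1.08, 95% interval -1.54 to -0.61, adjusted p = 0.591). Under other settings its adjusted p was 0.00804 (DESeq2), 0.0185 (likelihood ratio test) and 0.00971 (1 edgeR fit of both tissues), and ran from 0.00804 to 1.0 over all alternatives. Esm1, another endothelial gene, which encodes the secreted proteoglycan endocan, had 0.6102 to 1.81 (median 0.9198) CPM and 3.82, 2.06, 1.704 and 4.497 CPM, with 5 of 6 below the vehicle range. Its adjusted p was 0.0377 with both tissues in 1 fit and ran from there to 1.0 over the alternatives. Fst, which encodes follistatin, an activin-binding protein secreted by the liver, had 0.903 to 2.26 (median 1.67) and 3.16, 2.01, 3.12 and 6.37 CPM.

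Zfp668, Zfp386 and Zfp868 encode zinc finger proteins. Zfp668 had 1.88 to 2.85 (median 2.27) CPM with 7c and 5.403, 3.56, 3.92 and 3.24 CPM with vehicle, and Zfp386 had 5.01 to 7.91 (median 6.45) and 8.302, 9.35, 10.8 and 9.87 CPM. Neither overlapped. Zfp868, with 5.11 to 11.5 (median 6.39) and 12.5, 12.9, 9.97 and 12.9 CPM, had 1 7c liver within the vehicle range. In kidney the log2 fold changes of Zfp668, Zfp386 and Zfp868 were 0.29, -0.62 and -0.59. Pim1, a kinase induced by JAK-STAT signalling, had 14.4 to 17.7 (median 16.5) and 18.1, 27.5, 26.98 and 18.95 CPM, Rusc2 20.5 to 28.98 (median 25.6) and 39.1, 35.7, 31.7 and 34.1 CPM, and Tbc1d8b 9.56 to 12.4 (median 10.5) and 13.4, 12.9, 18.1 and 15.4 CPM. The groups did not overlap for these 3 genes. Mup9, 1 of the near-identical major urinary protein genes, whose reads cannot be assigned with certainty, had 16.4 to 54.3 (median 29.5) and 157, 38, 80.8 and 68.6 CPM, with vehicle replicate 1 highest. For the lower genes other than Mrap2, Zfp949 and Ppp1r16b the adjusted p was 0.9999.

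Among genes of low unadjusted p that are not protein-coding, Gm11942 had 1.23 to 2.92 CPM with 7c against 1.05, 0.803, 0.909 and 1.05 CPM with vehicle, and Gm57061 had 1.41 to 3.35 against 0.857, 0.889, 0.5396 and 0.263 CPM. Neither overlapped between the groups. Pomc, which encodes the precursor of the melanocortins and of corticotropin, was picked after its values were seen. It had 72 counts over the 7c livers (0.129 to 0.6501 CPM) and 0 over the vehicle livers, at least 17.8-fold higher against a floor of 3 counts over the group. It entered the table through the 7c livers alone, and its adjusted p was 0.687. Other fits of Pomc, which share that way into the table, gave 0.00804 (DESeq2), 5.01e-05 (likelihood ratio test) and 0.00631 (1 edgeR fit of both tissues), with up to 1.0 over the alternatives.

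The compounds' own readouts were read next, as lists of genes with their tested members. No list member passed the threshold in the test described above. Under alternatives, Cyp46a1, Ppp1r16b, Esm1 and Epcam did, and their values stand where each is described. The list medians are small and rest on few livers, as leaving out 1 liver moved 50 of 55 medians by over 1.5 times or across 0. The retinoic acid list had 14 tested genes, of which 8 were higher with 7c, with a median log2 fold change of 0.022. Cyp26a1, the retinoic acid hydroxylase whose gene is the classical target of the receptors that TTNPB activates, had 23.6, 15.8, 19.99, 22.3, 17.8 and 19.1 CPM in the 7c livers and 24.5, 31.3, 23.8 and 27.5 CPM in vehicle livers. Every 7c liver was below every vehicle liver (log2 fold change -0.44, 95% interval -0.71 to -0.16). Among the 14 it was the only member whose groups did not overlap, and 64 of all genes tested were lower in this way (0.411%). The interval before adjustment lay below 0, so it held no increase of this gene after 28 days.

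Targets of Wnt/beta-catenin, the pathway downstream of GSK3, were higher for 5 of 12 tested members (median -0.046). Axin2, a feedback gene that beta-catenin induces in most tissues, had 6.38 to 9.02 (median 7.86) CPM with 7c and 5.24, 7.57, 9.46 and 8.61 CPM with vehicle. Its log2 fold change of -0.0013 had a 95% interval of -0.40 to 0.39, within which a 2-fold change in either direction does not lie. Sp5, a transcription factor gene whose promoter carries the TCF/LEF motif printed above, had 1.703, 1.61, 0.598, 1.76, 1.44 and 2.38 CPM in the 7c livers and 0.329, 0.172, 0.852 and 0.467 CPM in vehicle livers. It was above the vehicle range in 5 of 6 7c livers, at a level of about 1 CPM (log2 fold change 1.79, 95% interval 0.73 to 2.84). Dkk4, a secreted Wnt inhibitor and feedback target, had the lowest log2 fold change of the list, -2.20 (95% interval -3.99 to -0.41), and both genes had an unadjusted p under 0.05. Its level was 0 to 0.506 CPM in the 7c livers and 1.12, 0.402, 0.398 and 3.33 CPM in vehicle livers, with 4 of 6 7c livers below the vehicle range. Hepatocytes around the central vein keep their programme through Wnt signals, and 10 of 16 pericentral genes were higher (median 0.11). Glul, glutamine synthetase, had 521 to 715 (median 632) and 553, 572, 478 and 530.3 CPM (log2 fold change 0.24), and Lect2, a secreted protein, had a log2 fold change of 0.30 (95% interval 0.072 to 0.53). Periportal genes were higher for 7 of 14 members (median -0.0033). Cyp2f2, a periportal P450, had a log2 fold change of 0.050 (95% interval -0.34 to 0.44).

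**Figure D3:**
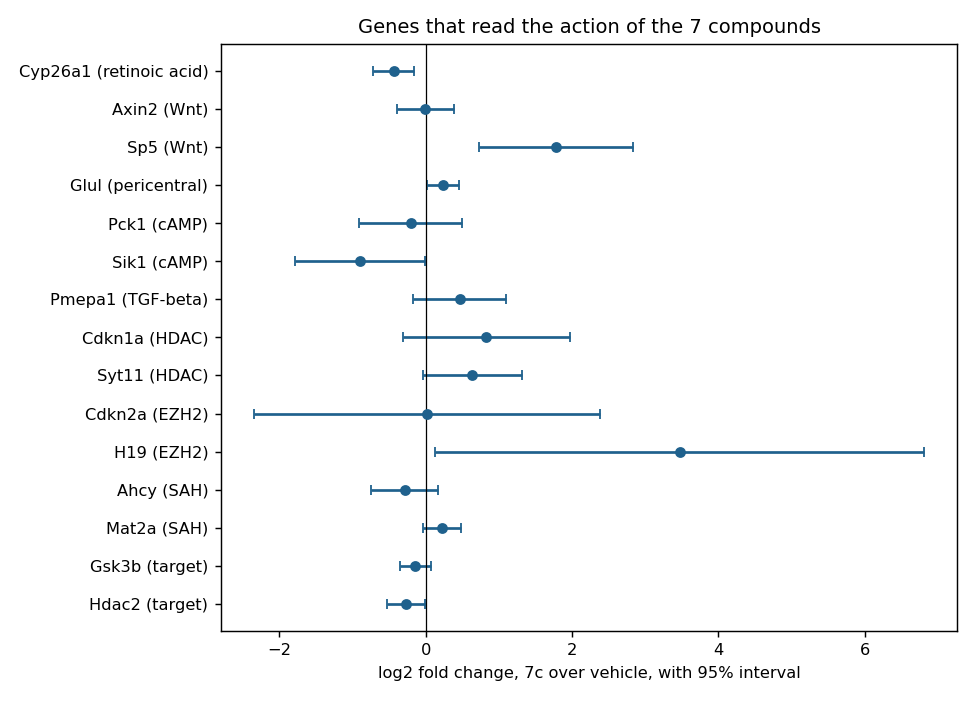
Log2 fold change of 7c over vehicle with its 95% interval (horizontal axis) for 15 genes that read the action of the compounds, with the list of each gene in brackets. The intervals of Cyp26a1, Sik1 and Hdac2 lie below 0 and those of Sp5, Glul and H19 above it before any adjustment. Those of Cdkn2a and H19 are the widest. The H19 value rests on 7c replicate 6 (12.4 CPM), and its unadjusted p was 0.0563 (edgeR's quasi-likelihood test).

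For cAMP and gluconeogenesis, 4 of 16 tested genes were higher (median -0.13). Pck1, which encodes the rate-limiting enzyme of gluconeogenesis, had 744, 788, 1384, 2361, 2626 and 1987 CPM in 7c replicates 1 to 6 and 2013, 1289, 2014 and 2273 CPM in vehicle livers. The 7c group reached both lower and higher than the vehicle group (log2 fold change -0.20, 95% interval -0.90 to 0.50). Sik1, a kinase gene that CREB induces, had 6.18 to 14.9 (median 10.9) CPM with 7c and 8.302, 6.71, 32.4 and 31.5 CPM with vehicle, where replicates 3 and 4 were high. TGF-beta and fibrosis genes were higher for 12 of 16 members (median 0.11), with 0 members at an unadjusted p under 0.05. Pmepa1, a feedback inhibitor of the pathway, had a log2 fold change of 0.46 (95% interval -0.17 to 1.09).

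Genes known to respond to histone deacetylase inhibitors were higher for 7 of 9 tested members (median 0.36), and 0 members had an unadjusted p under 0.05. With 1 liver left out that median ran from -0.0055 (without vehicle replicate 3) to 0.55 (without 7c replicate 1). Cdkn1a, the cell cycle inhibitor p21, had 8.15, 28.5, 10.96, 3.76, 5.45 and 2.38 CPM in the 7c livers and 5.93, 5.42, 6.73 and 4.15 CPM in vehicle livers, so that replicate 2 carried most of the difference in means. Syt11, a synaptotagmin gene, had 3.11 to 5.59 (median 3.57) and 2.31, 4.47, 2.04 and 1.34 CPM. Genes held silent by EZH2 were higher for 6 of 11 tested members (median 0.022). Cdkn2a encodes the cell cycle inhibitors p16 and p19. It had 0.857, 0.229, 0 and 0 CPM in vehicle livers and 0.0655 to 0.6102 CPM in the 7c livers. The 95% interval of its log2 fold change was -2.34 to 2.38. The imprinted RNA H19 had 12.4 CPM in 7c replicate 6, the liver with muscle transcripts, and at most 0.72 CPM in the other 9 (unadjusted p = 0.0563 from edgeR).

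Methionine and SAH metabolism, on which DZNep acts, had 9 of 15 genes higher (median 0.036). Ahcy, which encodes SAH hydrolase itself, had a log2 fold change of -0.29 (95% interval -0.74 to 0.17), and Mat2a, a methionine adenosyltransferase, 0.22 (-0.037 to 0.48). The genes that encode the proteins the compounds bind were higher for 5 of 18 members (median -0.12). Gsk3b had 26.4 to 31.6 (median 28.9) and 31.96, 28.2, 33.1 and 34.3 CPM, and Hdac2, a histone deacetylase, 19.8 to 25.02 (median 23.5) and 33.6, 22.6, 26.5 and 26.8 CPM. The 95% interval of Gsk3b was -0.35 to 0.069 and that of Hdac2 -0.52 to -0.0056.

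Lipid genes were of interest because the study examined lipid droplets. It reports droplet staining in cultured fibroblasts and in livers and kidneys of mice on higher 7c doses, not in the livers read here. The 22 tested lipid droplet genes had a median log2 fold change of 0.039, with 14 higher and 0 at an unadjusted p under 0.05. Plin2, the main coat protein of droplets in hepatocytes, had 377 to 523 (median 468) CPM in the 7c livers and 456, 427, 431 and 492 CPM in vehicle livers. Of the 6 7c livers, 3 lay above all vehicle livers and 2 below all of them, and the 95% interval of its log2 fold change was -0.20 to 0.25. Cideb, a droplet protein that acts in the loading of very low density lipoprotein, had 3.12 to 4.33 (median 3.59) and 3.16, 2.93, 2.84 and 2.92 CPM (log2 fold change 0.30).

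De novo lipogenesis genes were higher for 17 of 20 members (median 0.23), 2 of them at an unadjusted p under 0.05 and 0 without overlap. Fasn, fatty acid synthase, had 429 to 1183 (median 772) and 912, 471, 593 and 471 CPM (95% interval -0.22 to 0.97). Thrsp, a lipogenic gene that thyroid hormone and carbohydrate induce, had 196 to 761 (median 424) and 370.1, 144, 275 and 297 CPM, and Srebf1, which encodes the transcription factor SREBP1, 233 to 497 (median 322) and 277, 216, 376 and 221 CPM. Lpin1, a phosphatidate phosphatase, had 39.1, 32.6, 34.04, 65.7, 166 and 174 CPM in 7c replicates 1 to 6 and 40.2, 30.3, 34.7 and 38.2 CPM in vehicle livers. Replicates 4 to 6 were above the vehicle range and replicates 1 to 3 within it. All 20 cholesterol synthesis genes had a positive log2 fold change, from 0.031 to 0.34 with a median of 0.17. The list mean over its genes, in log2 CPM relative to the vehicle mean, was -0.040 to 0.40 in the 7c livers and -0.24 to 0.27 in vehicle livers, with 2 of 6 7c livers above the vehicle range. Insig1, a partner of the sterol sensor, had 463 to 678 (median 603) and 546, 591, 410.5 and 405 CPM. The members are regulated together by SREBP2, so their shared sign over the same 10 livers is 1 observation rather than 20.

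Bile acid and sterol hydroxylase genes were higher for 4 of 16 members, Cyp46a1 among them (median -0.060). Cyp7a1, the rate-limiting enzyme of bile acid synthesis, had 43.8 to 119 (median 82.6) and 96.3, 79.2, 107 and 77.4 CPM (95% interval -0.70 to 0.29). Fatty acid oxidation and ketogenesis genes were higher for 18 of 24 members (median 0.089). Cpt1a, which lets long-chain fatty acids into mitochondria, had a log2 fold change of -0.053 (95% interval -0.40 to 0.30), and Slc25a20, the carnitine carrier, 0.19 (-0.010 to 0.40).

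Mitochondrial genes were read by the genome that encodes them. Nuclear genes of complex I were higher for 30 of 36 members (median 0.12) and those of complexes II to V for 37 of 38 (median 0.082), with 1 member of each list at an unadjusted p under 0.05. These were Ndufb7 (log2 fold change 0.28, 95% interval 0.059 to 0.50) and Uqcr11 (0.37, 0.026 to 0.72). The first members of the lists, Ndufa1 and Sdha, had 0.15 (-0.12 to 0.41) and 0.0031 (-0.16 to 0.17). By liver, the complex I mean was -0.18 to 0.35 in 7c and -0.074 to 0.10 in vehicle livers, with 7c replicate 3 highest and 7c replicate 2 lowest. The 7c livers thus spread to both sides of the vehicle range. Without 7c replicate 3 the median was 0.061 for complex I, with 26 of 36 members higher, and 0.021 for complexes II to V, with 30 of 38 higher. Of the 13 genes of mitochondrial DNA, 4 were higher (median -0.053), and mt-Nd1 had a log2 fold change of -0.18 (95% interval -0.40 to 0.043). Their list mean was -0.26 to 0.21 in the 7c livers, inside the vehicle range of -0.50 to 0.55. Regulators of mitochondrial biogenesis and stress had 12 of 20 genes higher (median 0.034). Ppargc1a, the coactivator PGC-1alpha, had 4.25 to 8.37 (median 5.56) and 5.07, 8.32, 6.19 and 6.13 CPM, and Nrf1, a transcription factor for respiratory genes, 6.93 to 12.8 (median 9.29) and 11.99, 9.58, 11.5 and 14.95 CPM.

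Cytosolic ribosomal protein genes were higher for 68 of 77 members (median 0.10), and 7c replicate 3 stood highest of the 10 livers in this list as in the complex I list. Rplp0, the stalk protein of the large subunit, had 218, 199, 359, 384, 345 and 382 CPM in the 7c livers and 294, 339, 266 and 332 CPM in vehicle livers, a range that was wider with 7c (log2 fold change 0.030). Of the 77 members, Rpsa was the only one whose groups did not overlap, against 57 of all genes with all 7c livers higher (0.366%), and its sum with Rpsa-ps10 did overlap. Without 7c replicate 3 the median of the list was 0.021 and 51 of 77 members were higher. Many of these genes have processed pseudogenes that share their reads.

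Urea cycle and amino acid catabolism genes had a median of 0.027 over 22 members. Cps1, the entry enzyme of the urea cycle, had a log2 fold change of -0.020 (95% interval -0.31 to 0.27). Prodh, proline dehydrogenase, had 236 to 293 (median 262) CPM in the 7c livers and 173, 229.6, 218 and 205 CPM in vehicle livers, with no overlap (log2 fold change 0.35, 95% interval 0.13 to 0.57). Drug-metabolizing P450 genes were higher for 19 of 26 members (median 0.11). Cyp1a2 had a log2 fold change of 0.22 (-0.17 to 0.61), and Por, the reductase that supplies all microsomal P450 enzymes with electrons, had 118 to 204 (median 144) and 113, 139, 105 and 120.5 CPM. Phase II and NRF2 target genes had a median of 0.016, with Nqo1 at 0.24 (-0.19 to 0.66) and Gclm, a subunit of the enzyme that starts glutathione synthesis, at -0.24 (-0.45 to -0.021).

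Coagulation and complement genes had a median of 0.052, with prothrombin (F2) at 0.082 (-0.10 to 0.27) and C4b, a complement component, at 0.31 (-0.087 to 0.71). Apolipoproteins and carriers had 15 of 18 genes higher (median 0.088), with Apoa1 at 0.071 (-0.22 to 0.36) and Apoa2 at 0.19 (-0.030 to 0.41). Both encode the main proteins of high density lipoprotein. The 18 genes summed to 126135 to 173440 CPM in the 7c livers (median 156632) and 129086 to 152257 CPM in vehicle livers (median 137297), with 5 of 6 7c livers above the vehicle range. By the list mean, -0.18 to 0.21 in 7c and -0.078 to 0.084 in vehicle livers, it was 4 of 6 above and 1 below. Acute phase genes had a median of 0.040, and 3 of 21 had an unadjusted p under 0.05 with a higher mean, beside 1.89% of all genes tested. The list mean was -0.019 to 0.32 in 7c and -0.13 to 0.082 in vehicle livers, with 3 of 6 7c livers above the vehicle range. Saa1, serum amyloid A, had 23.97 to 38.7 (median 31.1) and 35.3, 18.04, 18.4 and 22.9 CPM.

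Male mice differ from females in liver through pulsatile growth hormone, which keeps male genes high and female genes low. Major urinary protein and other male genes were higher for 5 of 18 members (median -0.10), and Mup3 had a log2 fold change of -0.19 (-0.41 to 0.025). The 12 tested female genes were all above 0 (median 0.35), yet 0 had an unadjusted p under 0.05. That median ran from 0.23 (without 7c replicate 3, 8 of 12 higher) to 0.92 (without vehicle replicate 3, 12 of 12 higher) with 1 liver left out. Cyp2b9 had 1.28, 0.4503, 1.99, 8.54, 12.4 and 12.7 CPM in the 7c livers and 1.98, 2.27, 5.96 and 4.58 CPM in vehicle livers, and Cyp2b13 had 0.295, 0.0965, 0, 0.644, 5.2 and 2.89 and 0.0329, 0.0574, 0.227 and 0.935 CPM. In both, 7c replicates 5 and 6 were highest and 7c replicate 2 was low, and which reads belong to which of these similar genes is uncertain. Growth hormone and IGF axis genes had a median of -0.055. Igf1 had a log2 fold change of 0.013 (-0.22 to 0.25). Cish, which growth hormone pulses induce through STAT5, had 0.9495, 16.7, 4.92, 2.24, 0.469 and 3.32 CPM in the 7c livers and 1.55, 2.09, 0.568 and 0.993 CPM in vehicle livers, with replicate 2 far above the rest.

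All 17 tested genes of antigen presentation were above 0 (median 0.33) and 5 had an unadjusted p under 0.05, where 1.89% of all genes tested did in that direction, though 0 of the 17 were without overlap. H2-D1, a class I heavy chain, had 321 to 583 (median 436) CPM in the 7c livers and 302, 342, 391.9 and 309 CPM in vehicle livers (log2 fold change 0.41, 95% interval 0.094 to 0.72). H2-Aa and H2-Ab1, the chains of the class II molecule I-A, had 27.6, 22.1, 40.9, 39.8, 17.4 and 8.85 and 29.6, 23.8, 47.7, 32.3, 21.96 and 8.52 CPM in the 7c livers. In vehicle livers they had 14.5, 16.7, 13.5 and 25.1 and 11, 10.5, 16.02 and 20.7 CPM. For both, 7c replicate 6 was the lowest of the 10 livers, and 3 (H2-Aa) and 5 (H2-Ab1) of the 7c livers were above the vehicle range. Psmb9, an immunoproteasome subunit, had 19.98 to 29.8 (median 24.7) and 16.1, 20.4, 18.9 and 23.2 CPM. The list mean was 0.085 to 0.74 in 7c and -0.12 to 0.34 in vehicle livers, with 4 of 6 7c livers above the vehicle range. The 17 members were read in the same 10 livers, so their shared sign is not 17 separate observations. Immune cell lists did not all move with the class II genes among the 7c livers, and their part in these values was not tested. Replicate 6 was lowest and replicates 3 and 4 were highest of the 7c livers for H2-Aa, and the T and NK cell list mean was -0.996 in replicate 6 and 1.64 and 1.63 in replicates 3 and 4. The Kupffer cell list mean was -1.22 in replicate 6, the lowest of the 10 livers, and 0.55 and -0.19 in replicates 3 and 4. It was 0.23 and 0.64 in replicates 1 and 2. The B and plasma cell list went another way, highest of the 7c livers in replicate 6 (0.73) and lowest in replicate 3 (-0.26). Monocyte-derived macrophage markers were likewise lowest in replicate 3 (-0.46), with 0.25 in replicate 6. The window of chromosome 17 from 30 to 40 Mb holds the major histocompatibility complex. It had 11 of 209 genes at an unadjusted p under 0.05 (5.26%) and 0 without overlap. Interferon-stimulated genes had 19 of 30 members higher (median 0.089). Igtp, an interferon-gamma induced GTPase, had 30.6 to 53.6 (median 43.8) and 31.99, 32.95, 28.99 and 30.6 CPM, whereas Ifit1, which type I interferon induces, had 4.84 to 10.2 (median 7.46) and 10.7, 11.8, 7.16 and 8.35 CPM.

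**Figure D4:**
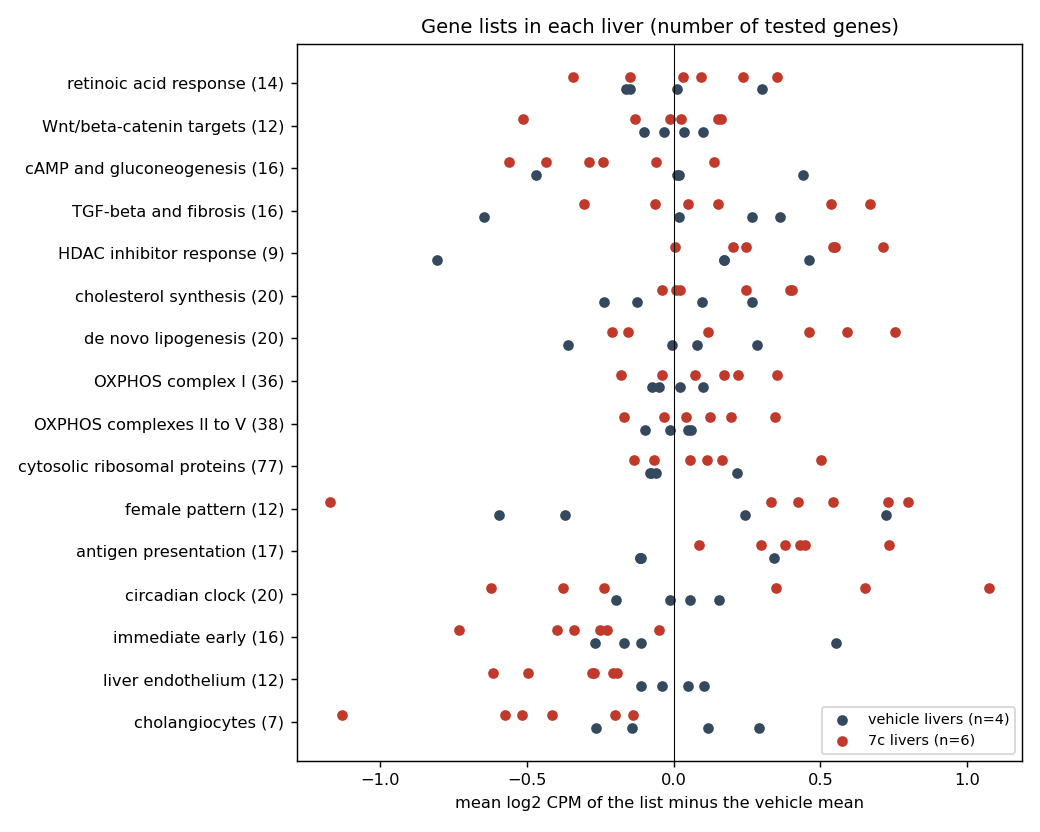
Mean log2 CPM of 16 gene lists in each liver, relative to the mean of the vehicle livers (horizontal axis), with 6 7c livers in red, 4 vehicle livers in blue and the number of tested genes in brackets. The endothelial list, drawn with 12 genes, includes Esm1 and Ppp1r16b, which were listed with their values known, and has all 7c livers below all vehicle livers only with them. The circadian list has 3 7c livers on either side of the vehicle range.

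Circadian clock genes varied more among 7c livers than between the groups. The list mean was -0.62 to 1.08 in the 7c livers and -0.20 to 0.16 in vehicle livers, with 3 7c livers (replicates 4 to 6) above and 3 (replicates 1 to 3) below every vehicle liver. Bmal1, the activator at the core of the clock, had 31.3, 35.4, 39.96, 18.5, 11.2 and 4.95 CPM in 7c replicates 1 to 6 and 29.4, 34.5, 27.2 and 26.2 CPM in vehicle livers. Dbp, an output gene that peaks when Bmal1 is low, was picked after its values were seen and had 2.06, 0.965, 0.266, 23.9, 46.4 and 93.1 CPM and 5.14, 3.96, 5.08 and 3.53 CPM. The 3 7c livers with the lowest Bmal1 had the highest Dbp, and for Dbp the vehicle livers lay between them and the other 3. Wee1, a cell cycle kinase under clock control, had 3.02 to 7.798 (median 4.45) and 2.83, 2.09, 2.84 and 3.18 CPM, Clock had 29.1 to 52.05 (median 33.9) and 46.8, 41.9, 46.9 and 51.2 CPM, and the deubiquitinase gene Usp2 had 1.05 to 20.6 (median 3.06) and 1.75, 2.35, 2.101 and 1.75 CPM. In this list 4 genes had an unadjusted p under 0.05 with a higher and 1 with a lower mean. The hour at which each liver was taken is not given in the sources used here.

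**Figure D5:**
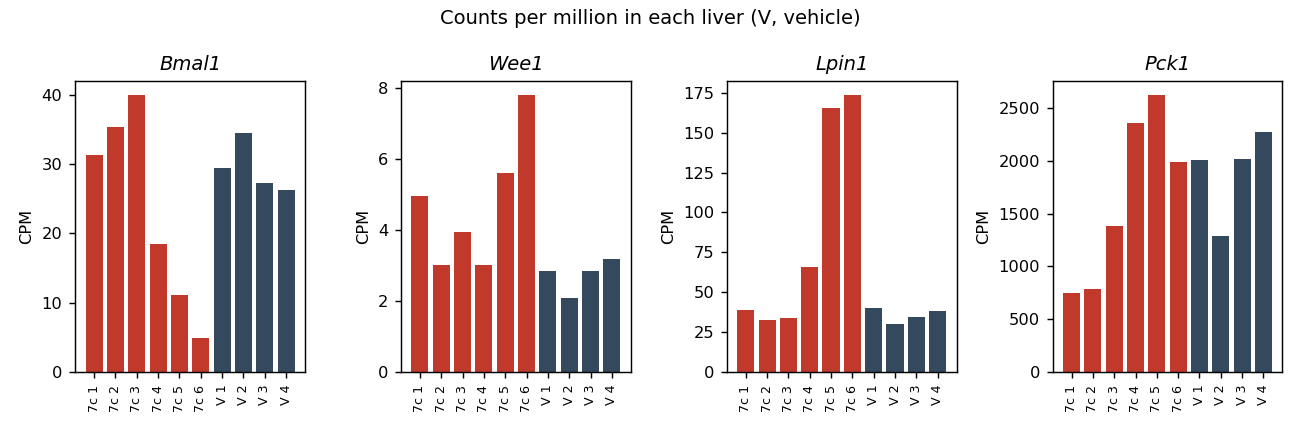
CPM of Bmal1, Wee1, Lpin1 and Pck1 in each liver as bars, 7c replicates 1 to 6 in red and vehicle replicates (V) 1 to 4 in blue. Replicates 4 to 6 of the 7c group have Bmal1 from 4.95 to 18.5 CPM, below all other livers, and the 3 highest Lpin1 values.

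Immediate early genes, which respond to stimuli within minutes, were higher for 3 of 16 members (median -0.29). Dusp1, a phosphatase of MAP kinases, had 8.31 to 14.8 (median 10.2) CPM in the 7c livers and 11.2, 16.98, 39.4 and 16.2 CPM in vehicle livers. Fos had 0.339 to 2.19 (median 0.654) and 0.791, 1.32, 0.966 and 5.96 CPM. Vehicle replicate 3 was highest for Dusp1 and vehicle replicate 4 for Fos. Glucocorticoid and metallothionein genes had a median of -0.12, with Fkbp5, a glucocorticoid-induced chaperone, at 14.5 to 25.3 (median 16.7) and 15.3, 15.03, 10.7 and 11.9 CPM. Unfolded protein and integrated stress genes had a median of 0.0098. The stress factor Ddit3 (CHOP) was at -0.11 (-0.53 to 0.30) and Manf, a chaperone cofactor of the endoplasmic reticulum, at 0.20 (-0.085 to 0.49). Heat shock genes had 13 of 15 members higher (median 0.15), with Hspa1a at 0.36 (-1.41 to 2.13) and Hspe1, a mitochondrial chaperonin, at 0.28 (-0.027 to 0.58).

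Readouts of growth and reprogramming were at low levels. Proliferation genes had a median of 0.091 and a list mean of -0.011 to 0.51 in 7c and -0.098 to 0.051 in vehicle livers, with 5 of 6 7c livers above the vehicle range. Mki67, a marker of cycling cells, had 0.542 to 1.3 CPM in the 7c livers and 0.264 to 1.52 CPM in vehicle livers. Mcm6, a subunit of the replication helicase, had 1.44 to 5.13 (median 4.13) and 1.84, 1.49, 3.98 and 1.05 CPM. Of p53 and senescence genes, 12 of 18 were higher (median 0.10), and Eda2r, a death receptor gene that p53 induces, had 0.0664 to 1.23 CPM with 7c and 0 to 0.402 CPM with vehicle. Of the 20 reprogramming and fetal liver genes, 8 passed the filter and 6 had 0 counts in all 10 livers. Klf4, a reprogramming factor that adult liver also expresses, had 0.271 to 1.66 (median 1.11) and 0.988, 0.574, 1.36 and 1.46 CPM (95% interval -1.11 to 1.05). Epcam, a gene of epithelial progenitors and bile ducts, had 0.851, 0.772, 0.332, 0.542, 0.939 and 1.26 CPM in the 7c livers and 3.097, 1.38, 1.48 and 2.28 CPM in vehicle livers, all 6 below the vehicle range (log2 fold change -1.39, 95% interval -2.27 to -0.50). The adjusted p of Epcam was 0.9999, against 0.0481 with both tissues in 1 fit and up to 1.0 over the alternatives. Hepatocyte identity factors had a median of 0.072. Hnf4a, the central factor of hepatocyte identity, had 409 to 643 (median 606) and 675, 611, 674 and 457 CPM, and Prox1 had 42.6 to 74.02 (median 61.8) and 75.8, 71.6, 99.7 and 83.96 CPM, with 5 of 6 7c livers below the vehicle range.

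Cell type markers describe what else the pieces of liver held. In whole tissue, fewer cells of a type and less RNA per cell cannot be told apart. Endothelial genes were higher for 2 of 12 members (median -0.14), and 3 had an unadjusted p under 0.05 with a lower mean. The list mean was -0.62 to -0.19 in the 7c livers and -0.11 to 0.10 in vehicle livers, all 6 below. Esm1 and Ppp1r16b were put on this list with their values known. Without this pair, an alternative chosen after the data were seen, 2 of 10 genes were higher (median -0.13), 1 had an unadjusted p under 0.05 with a lower mean, and the list mean was -0.53 to 0.0090 in the 7c livers and -0.079 to 0.075 in vehicle livers. Only 2 of 6 7c livers were then below the vehicle range. Stab2, a scavenger receptor of sinusoidal endothelium, had 24.6 to 84.6 (median 48.6) and 55.3, 41.9, 57.4 and 56.04 CPM, and Fcgr2b, the most abundant member, had a log2 fold change of -0.12 (-0.52 to 0.27). The summed level of the 12 genes was 162 to 329 and 254 to 300.3 CPM, which overlapped.

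Bile duct genes summed to 35.1 to 41.4 CPM in the 7c livers and 42.03 to 63.1 CPM in vehicle livers, with no overlap, and 2 of 7 tested members were higher (median -0.27). The list mean was -1.13 to -0.14 in 7c and -0.27 to 0.29 in vehicle livers, with 4 of 6 7c livers below the vehicle range. Krt19, a keratin of bile duct cells, had 0.373 to 1.38 (median 1.01) and 2.83, 1.46, 1.36 and 1.11 CPM. Spp1, osteopontin, the most abundant of these genes, had 16.8 to 29.9 (median 22.7) and 43.3, 30.7, 23.9 and 28.04 CPM. Spp1 is also a macrophage gene. Epcam, described above, is a member of this list too, so its lower level and that of the bile duct markers are not separate observations. Kupffer cell genes summed to 99.6 to 323 CPM in the 7c livers and 129.7 to 352 CPM in vehicle livers, and Clec4f, the marker that defines these resident macrophages, had 33.4 to 112 (median 69.4) and 45.1, 113, 99.3 and 87.8 CPM. Monocyte-derived macrophage markers included Ccr2, with 0.505 to 1.703 and 0.574 to 1.69 CPM, and Lyz2, with 34.8 to 223 and 34.9 to 97.3 CPM, highest in 7c replicate 6, the liver with muscle transcripts.

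Stellate cell and fibroblast genes had a median of 0.028, with Lrat, the enzyme that stores retinol as ester, at -0.041 (-0.64 to 0.56) and the matrix gene Dcn at -0.16 (-0.48 to 0.17). Lymphocyte genes were few. T and NK cell markers summed to 2.82 to 10.8 and 4.09 to 6.34 CPM, and 5 of 6 tested members were higher (median 0.57). The list mean was -0.996 to 1.64 in 7c and -0.61 to 1.06 in vehicle livers, which overlapped, with Cd4 at 1.52 to 5.34 (median 2.5) and 2.57, 2.81, 1.87 and 1.52 CPM. B cell and plasma cell genes ranged widely through immunoglobulin, with Ighm at 18.2 to 98.3 (median 45.9) and 117, 35.9, 24.3 and 102 CPM and Cd79a at 0 to 1.81 and 0 to 1.197 CPM. Neutrophil genes summed to at most 3.47 CPM in any liver, S100a8 and Csf3r among them at no more than 0.574 and 2.60 CPM.

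Blood and neighbouring tissues were read as well. Hba-a1, a globin gene with near-identical copies, had 248, 118, 91.8, 74.7, 470.2 and 257 CPM in the 7c livers and 102, 98.7, 131 and 131 CPM in vehicle livers, and Alas2, the erythroid heme enzyme, had a log2 fold change of -0.13 (-0.52 to 0.27). Pf4 and Itga2b of platelets were at 0.37 (-1.10 to 1.84) and -0.18 (-0.69 to 0.34). The muscle genes Mylpf and Eno3 had 45.0 and 42.7 CPM in 7c replicate 6 and at most 1.79 and 8.15 CPM in the other livers. Of the fat cell markers, Cidec had 1.66 to 5.31 (median 3.17) and 2.504, 0.8604, 2.87 and 2.89 CPM, and Car3, which male liver also expresses strongly, had a log2 fold change of 0.080 (-0.15 to 0.32). Kidney tubule markers summed to at most 1.76 CPM, with Lrp2 at 0.393 to 1.01 and 0.631 to 1.65 CPM, and 4 of the 8 listed genes at 0 in all livers. Of the adrenal list, Cyp21a1 had 0.475 to 2.73 and 0 to 1.05 CPM, and Fdx1, which liver expresses itself, had a log2 fold change of 0.10 (-0.12 to 0.33). Markers of pancreatic acini summed to at most 0.659 CPM, with 7 of 8 at 0 in all livers.

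Whether an effect of 7c differed between liver and kidney was tested as an interaction on 14685 genes, those tested in liver and also in kidney, and 4 genes (0.0272%) passed, with 383 (2.61%) at an unadjusted p under 0.05. Mrap2 differed by -7.04 on the log2 scale, liver minus kidney (standard error 1.61, adjusted p = 0.00129), where the liver term is the smoothed fold over a group near 0 and the gene entered the liver table through the vehicle livers alone. Cyp46a1 differed by 4.24 (adjusted p = 0.0435), with 2.999 ± 0.811 CPM in 7c kidneys and 2.99 ± 0.693 CPM in vehicle kidneys. Dnajc6, the clathrin uncoating cofactor auxilin, had 4 counts over the 7c livers and 56 over the vehicle livers, which alone carried it past the filter, a ratio of 0.0531 (0.0140 to 0.144, counting error only). The adjusted p of Dnajc6 in liver was 0.9999, against 0.000407 by likelihood ratio and 0.00157 in the fit of both tissues. In kidneys it had 15.3 ± 3.97 and 17.2 ± 5.7 CPM, and the difference between tissues was -3.89 (adjusted p = 0.0194). Ces1c, a carboxylesterase that liver secretes into plasma, had 2749.9 ± 490.0 CPM in the 7c livers and 2640.3 ± 317 CPM in vehicle livers. In kidneys it had 0.288 ± 0.168 CPM with 7c and 1.72 ± 0.433 CPM with vehicle (log2 fold change -2.54, adjusted p = 0.366 from edgeR), where 0 of 18349 genes passed the threshold. The interaction was 2.54 (adjusted p = 0.00507). All 10 hepatocyte markers also had a negative log2 fold change in kidneys (median -1.46), 6 of them at an unadjusted p under 0.05 where 1.23% of kidney genes were lower in this way. They summed to 80.4 to 328 CPM in 7c kidneys and 210.4 to 303 CPM in vehicle kidneys, and 4 of the 6 7c sums were lower than any vehicle sum. Their part in the Ces1c result was not tested. Liver and kidney libraries share replicate numbers, and with a replicate block by that number, taken as the mouse, 2 of these genes passed, Mrap2 (adjusted p = 0.00231) and Ces1c (0.0381), while Dnajc6 and Cyp46a1 had 0.231 and 0.458 in that edgeR fit.

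How large a change could have been missed follows from the intervals. The median SD of log2 CPM within a group was 0.314, and the median half-width of the 95% interval was 0.426 over all genes and 0.273 over the 7791 genes above 10 CPM. For 10738 genes (68.9%) the interval lay between -1 and 1, so that a 2-fold change was outside it. For genes near or below 1 CPM, such as Cdkn2a, the intervals can reach beyond a 4-fold change. A change of that size in such a gene can then be neither shown nor set aside with these mice. For Serpina3g, named for its low p, the interval of 0.75 to 2.69 also reached beyond a 4-fold change.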

How the data were processed

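RNA was sequenced from whole liver of 6 7c and 4 vehicle mice. Per the labels and the methods, the authors mapped reads to GRCm39 with STAR 2.7.11b and deposited raw counts per Ensembl gene from featureCounts 2.0.6, not normalized. The annotation release, the strand setting and the treatment of reads that map to several genes are not given in the sources used here, so counts of near-identical, overlapping and antisense genes are uncertain. Gene names and positions came from GENCODE vM39.

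Genes for which 4 or more of the 10 livers had 10 counts or more were tested with edgeR 4.0.16 (R 4.3.3), using TMM factors and its quasi-likelihood F-test, and p was adjusted by Benjamini-Hochberg with a threshold of 0.05. Intervals of 95% came from the model's standard error. Levels are CPM after TMM scaling, and list means use log2 CPM with a prior count of 2. A treatment by tissue term in all 20 libraries compared liver with kidney. The livers came from 10 mice, and kidney libraries carry the same replicate numbers. No 2 livers agreed within sampling noise.

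Named genes were those past either threshold, the 12 protein-coding genes of lowest p in each direction at a mean of at least 1 CPM, and for each pathway list the first tested gene and that of lowest p, with up to 2 more where a list is described at length. For each cell type list they were the first tested and the most abundant gene. Of these, 2 genes are not reported here. Members and all 56 lists were chosen with earlier results of these data known. Alternatives were the filter, the scaling, thinning, limma-voom (limma 3.58.1), DESeq2 1.42.0, 1 surrogate variable (sva 3.50.0), a replicate block, a fit of both tissues and leaving out each liver. The fitting script was tested on simulated counts.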

Additional observations from a re-analysis of the deposited data

Results flagged for a closer look

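In groups of 4 or 6 livers a single sample stood far from the others for 13 named genes, by Dixon's ratio at its 95% critical value. Chance gives about 1 such group in 20, and 268 groups were read. Mrap2 in 7c livers had 0.0327 CPM in replicate 1 and 0 in the others, which is a single count. Cyp46a1 in 7c livers was lowest in replicate 4, at 5.63 CPM. Camkmt in vehicle livers was lowest in replicate 1, at 0.395 CPM. Zfp868 in vehicle livers was lowest in replicate 3, at 9.97 CPM. Gm11942 in 7c livers was lowest in replicate 6, at 1.23 CPM, and Sp5 in replicate 3, at 0.598 CPM. Igf1 in vehicle livers was highest in replicate 1, at 651 CPM. Stab2 and Cidec in vehicle livers were lowest in replicate 2, at 41.9 and 0.860 CPM. Cd79a was 0 in 7c replicate 5. Mylpf and Eno3 were highest in 7c replicate 6, at 45.0 and 42.7 CPM, the liver with skeletal muscle transcripts. Rpsa-ps10 was lowest in vehicle replicate 2, at 4.76 CPM.

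For 4 genes the effect of 7c differed between liver and kidney by the interaction test (edgeR, adjusted p under 0.05). The difference, liver minus kidney on the log2 scale, was -7.04 for Mrap2, 2.54 for Ces1c, -3.89 for Dnajc6 and 4.24 for Cyp46a1. Mrap2 and Dnajc6 passed the liver filter through the vehicle livers alone and have 1 and 4 counts over the 7c livers, so their liver terms had to be negative and the sizes depend on how a group near 0 is smoothed.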

How the results depend on the processing

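The 2 genes called in liver were called with RLE or upper-quartile factors, robust or newer dispersion fits, limma-voom, 1 surrogate variable, a mean filter of 1 CPM and thinned libraries. The number was 8 with DESeq2, 12 with the likelihood ratio test, 9 with both tissues in 1 fit and 4 with no filter, all of which held Mrap2, Zfp949 and Cyp46a1. With at least 10 counts in 5 of 10 livers it was 1, since Mrap2 was no longer tested. Leaving out 1 liver gave 0 (without vehicle replicate 4) to 3 calls (without 7c replicate 4), and 616 genes at an unadjusted p under 0.05 where it gave 0. Without vehicle replicates 1 or 3, 1 gene was called, Zfp949. Replicate numbers do not pair the livers, as samples with the same number had correlations of -0.036 to 0.046, and a replicate block gave 1 call, Mrap2. In the interaction the 4 calls became 32 with the likelihood ratio test, 0 with limma-voom, 2 with a replicate block by mouse number (Mrap2 and Ces1c), and 0 (without vehicle replicate 1 or 4) to 11 (without 7c replicate 6) on leaving out 1 mouse. The cause was not tested.

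Of 134 named genes, 27 changed sign under some alternative. None of them passed the threshold in any. The log2 fold change of Axin2 became 0.021 with 1 surrogate variable, 0.000375 with RLE factors, 0.0053 with both tissues in 1 fit, 0.00758 with limma-voom, 0.011 with no filter, 0.039 with the replicate block and 0.0043 with upper-quartile factors. With 1 surrogate variable and with the replicate block it became -0.082 and -0.070 for Cyp2f2, -0.022 and -0.057 for Plin2, -0.017 and -0.020 for Sdha, -0.084 and -0.14 for Rplp0, 0.045 and 0.034 for Cps1, -0.61 and -0.85 for Cyp2b9, -0.29 and -0.12 for Cyp2b13, 0.11 and 0.076 for Lrat, and -0.53 and -1.05 for Dbp. With the surrogate variable alone it became -0.040 for Cdkn2a and 0.00095 for Stab2. With the block alone it became 0.048 for Bmal1, -0.052 for Mylpf and -0.15 for Eno3. With limma-voom it became -0.012 for Rplp0, -0.050 for Cyp2b9 and 0.018 for Mki67.

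Leaving out 1 liver gave log2 fold changes on both sides of 0 for Axin2 (-0.15 to 0.11), Cyp2f2 (-0.034 to 0.21), Cdkn2a (-0.39 to 0.23), Plin2 (-0.012 to 0.079), Cpt1a (-0.14 to 0.016), Sdha (-0.030 to 0.038), Ppargc1a (-0.18 to 0.078), Rplp0 (-0.035 to 0.13), Cps1 (-0.12 to 0.050), Apoa1 (-0.045 to 0.17), Igf1 (-0.033 to 0.13), Ddit3 (-0.22 to 0.074), Hspa1a (-0.32 to 1.65), Mki67 (-0.41 to 0.30), Klf4 (-0.24 to 0.17), Ccr2 (-0.10 to 0.53), Lyz2 (-0.18 to 0.78), Stab2 (-0.36 to 0.0061), Lrat (-0.26 to 0.10), Cd79a (-0.018 to 0.90), Mylpf (-0.088 to 3.53), Eno3 (-0.15 to 1.08) and Ces1c (-0.023 to 0.13). The median of 21 gene lists changed sign with another scaling or with 1 liver left out. Without 7c replicate 6 the median of the skeletal muscle list was -0.12. Depth limits what can be said of genes below 1 CPM, and the 4 vehicle livers limit the others.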

Other observations

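Some genes differed far more between livers of 1 treatment than between treatments. They were ranked by the SD of log2 CPM within groups, over protein-coding genes of at least 10 CPM, after their values were seen, and each had an adjusted p of 0.9999 between 7c and vehicle. Ctse, which encodes the protease cathepsin E, had 0, 0.0643, 18.1, 0.0678, 10.1 and 22.2 CPM in 7c livers and 20.2, 14.5, 0.170 and 30.5 CPM in vehicle livers. Both groups thus held livers with almost none of it and livers above 10 CPM. Hamp2, a relative of the iron hormone hepcidin, had 11.6, 159, 1.76, 231, 228 and 331 CPM in 7c livers and 253, 257, 2.95 and 2.95 CPM in vehicle livers.

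Serpina1e, a member of the alpha-1 antitrypsin family whose copies are similar, had 37.9 CPM in 7c replicate 4 and 31.0 CPM in vehicle replicate 4 against at least 2619 CPM in the other 8 livers. Rpl26, a ribosomal protein gene, had 6.16 to 7.08 CPM in 7c replicates 1 and 6 and vehicle replicate 1, and 92.4 to 239 CPM in the other 7 livers. Cyp4a14, a fatty acid hydroxylase, ranged from 0.203 to 170 CPM among 7c livers and from 1.52 to 107 CPM among vehicle livers. Nnmt, nicotinamide N-methyltransferase, had 2.53 to 72.9 CPM in 7c livers and 2.24 to 33.4 CPM in vehicle livers.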
